A study of Mus musculus with 4 samples.

Results

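The transcription factors described here are 10 genes of the naive pluripotency network of mouse embryonic stem cells (ESCs), *Pou5f1*, *Nanog*, *Sox2*, *Esrrb*, *Klf2*, *Klf4*, *Klf5*, *Tfcp2l1*, *Prdm14* and *Sall4*. They were chosen by name from a table of 24637 genes, 9 by their current symbol and *Tfcp2l1* by its older symbol *Tcfcp2l1*. The table holds 4 messenger RNA libraries from ESC lines driven towards cardiomyocytes, for 5 days as embryoid bodies (EBs) in serum and 9 days after plating on gelatin. Of these, 2 carry the label Taf4+/+ (WT) and 2 the label Taf4a-/- (called mutant-labelled from here on), from ESCs of blastocysts of heterozygous crosses whose null allele lacks internal exons of *Taf4a*, a subunit of the general transcription factor TFIID. The label of all 4 libraries is cardiac cells, all lines had been grown on feeder fibroblasts with LIF before EB formation, and replicates 1 and 2 of a genotype are biological, from 2 independent ESC lines by the study's methods. The comparison asks how far the stem cell factors were still expressed, with and without Taf4, late in differentiation.

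In ESCs these factors bind one another's genes and hold the cells in a state from which every lineage of the embryo can form. Pou5f1 (Oct4) and Sox2 bind DNA as a pair and, with Nanog, form the centre of the network, while Esrrb, the Kruppel-like factors Klf2, Klf4 and Klf5, and Tfcp2l1 mark the naive state of the early epiblast and are lost on exit from it. Most of the network is switched off as EBs differentiate, but several members have other sites of expression: *Sox2* in neural progenitors, *Klf4* and *Klf5* in epithelia, *Klf2* in endothelium, *Tfcp2l1* in ducts of the kidney and other epithelia, *Prdm14* in germ cells and *Sall4* in many embryonic progenitors.

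Promoters are printed for 4 members because the genes behaved differently: *Nanog* and *Klf2* were higher in the mutant-labelled libraries, whereas no difference was called for *Klf4* and *Tfcp2l1*. Each run holds the 250 bases before the start of transcription, 5′ to 3′ on the gene's strand, from RefSeq on build GRCm38.p6. Capitals mark matches, on either strand, to the letters TATAAA, the TATA box, ATTTGCAT, the octamer read by Pou5f1, ACAATG, a core read by SOX factors, CCACACCC, a site of Kruppel-like factors, AAGGTCA, the site of Esrrb and its relatives, and GGGCGG, the GC box.
Nanog, chr6:122707239-122707488, plus strand: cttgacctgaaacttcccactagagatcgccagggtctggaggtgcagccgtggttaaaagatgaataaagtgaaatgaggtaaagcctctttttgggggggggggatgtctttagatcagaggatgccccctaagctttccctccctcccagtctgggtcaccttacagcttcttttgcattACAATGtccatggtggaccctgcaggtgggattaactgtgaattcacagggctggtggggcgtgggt
Klf2, chr8:72318812-72319061, plus strand: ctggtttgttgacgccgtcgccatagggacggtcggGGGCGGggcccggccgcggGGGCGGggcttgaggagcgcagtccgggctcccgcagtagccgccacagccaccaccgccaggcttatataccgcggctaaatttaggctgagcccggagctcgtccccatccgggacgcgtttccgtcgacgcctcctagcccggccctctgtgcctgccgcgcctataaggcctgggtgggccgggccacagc
Klf4, chr4:55532476-55532725, minus strand: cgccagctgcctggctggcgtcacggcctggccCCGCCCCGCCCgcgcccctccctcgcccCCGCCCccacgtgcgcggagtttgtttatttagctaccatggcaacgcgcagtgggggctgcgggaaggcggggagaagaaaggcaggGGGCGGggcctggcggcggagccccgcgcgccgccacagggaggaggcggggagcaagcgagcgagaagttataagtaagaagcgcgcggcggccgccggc
Tfcp2l1, chr1:118627695-118627944, plus strand: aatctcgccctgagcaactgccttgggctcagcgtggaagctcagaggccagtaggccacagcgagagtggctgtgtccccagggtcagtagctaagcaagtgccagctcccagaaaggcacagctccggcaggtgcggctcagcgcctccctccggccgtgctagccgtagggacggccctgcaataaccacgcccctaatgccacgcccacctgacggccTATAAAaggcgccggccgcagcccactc
RefSeq promoters were found for 7 of the 10 factors, with a second start for *Pou5f1*, *Nanog* and *Esrrb*. *Klf5*, *Prdm14* and *Sall4* had no entry. The SOX letters stood 67 bases before the printed start of *Nanog*, in the window of its second start and 158 bases before the second start of *Pou5f1*, and occur in 10.7% of all 32851 promoter entries of the same length. A TATA box stood 28 bases before the start of *Tfcp2l1* and in no other of these entries, against 12.4% of all promoters. GC boxes were found in *Pou5f1*, *Sox2*, *Klf2* and *Klf4*, and in 32.7% of all promoters; some of those of *Klf4* overlap one another. The exact octamer, KLF and Esrrb letters, which 1.60%, 3.20% and 4.08% of all promoters hold, were found in none of these windows. Near matches were not searched for, so their absence does not show that such sites are lacking. The printed *Nanog* window holds ttttgcat, the octamer but for its leading letter, just before the SOX letters. The printed *Tfcp2l1* window holds ccacgccc, the KLF letters with g in place of an a. These matches are descriptions of the reference sequence, and no binding was measured in these libraries.

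Read depth was similar in the 4 libraries, with 21732746 to 27733034 reads counted on genes. The values are normalized counts, the reads of a gene divided by 1 size factor per library, and 1 read was worth 0.877 to 1.11 of them. For the targeted gene *Taf4a* the WT libraries gave 889 and 678 normalized counts against 1722 and 1799 in the mutant-labelled libraries, a log2 fold change of 1.18 (standard error, SE, 0.16; adjusted p = 0.00569 in limma). Its count was thus not lower under the mutant label; the counts cover the whole gene and cannot show the missing exons, so the genotypes are those of the labels. Markers of the labelled cell type were present in WT and lower in the mutant-labelled libraries: the 10 cardiomyocyte genes of a list, *Tnnt2* and *Actc1* among them, were all called lower, at a median of -2.85 on the log2 scale. In these bulk cultures, fewer cells of a type and less RNA per cell cannot be told apart.

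With mutant-labelled set against WT, 7 of the 10 factors were called higher and 0 lower by limma, calls being made where the p-value, adjusted over 16926 genes by the Benjamini-Hochberg method, was under 0.05. Across all genes tested, 28.6% were called, 11.3% higher and 17.3% lower. At an unadjusted p under 0.05, too, no factor was lower. The 7 were *Esrrb*, *Prdm14*, *Nanog*, *Pou5f1*, *Klf2*, *Sox2* and *Sall4*, with log2 fold changes from 0.91 to 3.54. *Klf4*, *Klf5* and *Tfcp2l1* passed in neither direction. The median log2 fold change of the 10 was 2.12, against -0.01 over all genes tested; it was 1.31 when WT replicate 2 was left out and 2.56 when WT replicate 1 was. Rises of at least 2 on the log2 scale were measured for 5 of the 10 factors and for 1.95% of all genes.

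**Figure D1:**
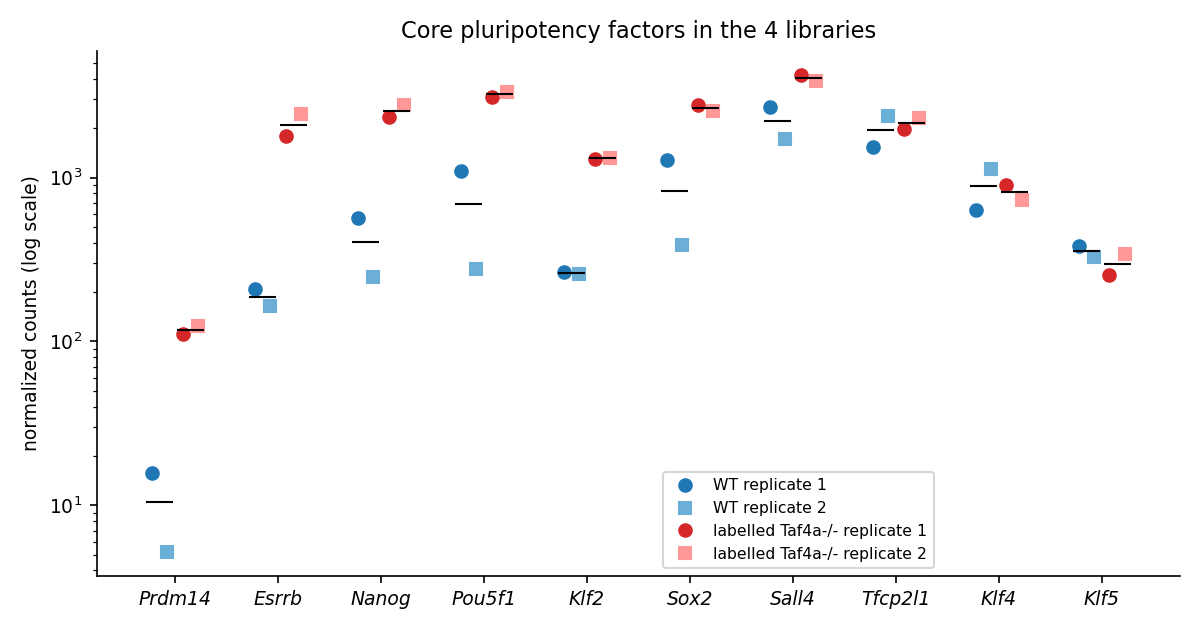
Normalized counts (log axis) of the 10 factors in each of the 4 libraries, ordered by fold change, with black bars for the mean of the 2 libraries of a genotype. Both red points lie above both blue points for 7 factors, from *Prdm14* to *Sall4*, and the colours interleave for *Tfcp2l1*, *Klf4* and *Klf5*.

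At the centre of the network, the normalized counts of *Pou5f1* (chromosome 17 of NCBIM37/mm9, 35642982 to 35647721, plus strand) were 1097 in WT replicate 1 and 278 in WT replicate 2, and the mutant-labelled replicates 1 and 2 had 3113 and 3325. The genotypes did not overlap, and the lower mutant-labelled library stood 2.84-fold above the higher WT library. The log2 fold change was 2.54 (SE 0.57, adjusted p = 0.0239, limma), and the 2 WT libraries differed from each other by 3.94-fold.

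*Sox2*, the partner of Pou5f1, lies on chromosome 3 (34548927 to 34551383, plus strand) as 1 exon. Its normalized counts were 1277 and 385 in WT and 2785 and 2559 in the mutant-labelled libraries. Here too the same WT library was the higher one, and the gap between the nearest libraries of the genotypes was 2.00-fold. Its log2 fold change was 1.93 (SE 0.51, adjusted p = 0.0360, limma). *Sox2* lies inside the span of the long non-coding gene *Sox2ot* on the same strand, without shared exons, and *Sox2ot* had at most 8.77 normalized counts. Of 9 neural markers in the table, whose summed level was 727 and 850.01 normalized counts per kb in WT and 1165 and 921 in the mutant-labelled libraries, 8 were tested and 1 was called higher, *Olig2* (log2 fold change 2.28, and not called without WT replicate 2, adjusted p = 0.0661, or without mutant-labelled replicate 2, adjusted p = 0.0687, limma); their part in the *Sox2* value was not tested.

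*Nanog*, the homeobox factor that stabilises self-renewal (chromosome 6, 122657507 to 122664651, plus strand), had 563 and 247 normalized counts in WT and 2327 and 2764 in the mutant-labelled libraries. The lowest mutant-labelled value was 4.13-fold above the highest WT value. Its log2 fold change of 2.76 (SE 0.36, adjusted p = 0.00505, limma) was the third of the set.

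Among the factors of the naive state, *Esrrb*, an orphan nuclear receptor on chromosome 12 (87702067 to 87862578, plus strand), showed the widest separation of the genotypes. Its values were 210 and 164 normalized counts in WT and 1781 and 2431 in the mutant-labelled libraries. The WT libraries were within 1.28-fold of each other, and the lower mutant-labelled library stood 8.498-fold above the higher WT one. The log2 fold change was 3.48 (SE 0.21, adjusted p = 0.000833, limma).

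*Prdm14*, a PR domain factor that restrains FGF signalling and DNA methylation in naive cells (chromosome 1, 13103538 to 13117244, minus strand), was the least abundant member. Its values were 15.8 and 5.20 normalized counts in WT, from 18 and 5 reads, and 111 and 125 in the mutant-labelled libraries. The log2 fold change of 3.54 (SE 0.54, adjusted p = 0.00752, limma) was the highest of the 10 genes, with a 95% interval from 2.24 to 4.84 that spans the value of *Esrrb*.

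Of the 3 Kruppel-like factors, zinc finger proteins with partly shared functions in ESCs, 1 was called higher. *Klf2* (chromosome 8, 74842932 to 74845555, plus strand) had 265 and 259 normalized counts in WT and 1292 and 1323 in the mutant-labelled libraries. Both libraries of each genotype were almost equal, and the log2 fold change of 2.32 had the smallest SE of the set (0.14, adjusted p = 0.000809, limma). *Klf4* (chromosome 4, 55540013 to 55545347, minus strand) had 632 and 1133 normalized counts in WT and 896 and 730 in the mutant-labelled libraries, so that both mutant-labelled values lay between the WT values. Its log2 fold change was -0.07 (SE 0.28, adjusted p = 0.880, limma), with a 95% interval for the fold from 0.593 to 1.54; the sign was not stable, being above 0 with quantile normalization and without WT replicate 2 or mutant-labelled replicate 2. *Klf5* (chromosome 14, 99697910 to 99712624, plus strand) had 383 and 328 normalized counts against 253 and 343, again overlapping. For this gene the log2 fold change was -0.27 (SE 0.22, adjusted p = 0.383, limma) and the 95% interval of the fold ran from 0.576 to 1.20.

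*Tfcp2l1*, a factor of the CP2 family that acts downstream of LIF in ESCs (chromosome 1, 120524522 to 120581744, plus strand), had 1534 and 2380.5 normalized counts in WT and 1971 and 2314 in the mutant-labelled libraries. The mutant-labelled values fell inside the WT range. Its log2 fold change of 0.16 (SE 0.22, adjusted p = 0.613, limma) had a 95% interval of the fold from 0.770 to 1.62, and was -0.16 without WT replicate 1. An annotated U1 small nuclear RNA covers 130 bases of its exons. The intervals of *Klf4*, *Klf5* and *Tfcp2l1* do not show that their levels were equal. Each ends below the lower bound of the interval of *Esrrb*, 7.82-fold, and of that of *Klf2*, 3.95-fold. The interval of *Sall4*, from 1.31-fold to 2.70-fold, overlaps those of *Klf4* and *Tfcp2l1*, so not every called factor stands apart from those not called.

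*Sall4*, a zinc finger factor also made in many early progenitors (chromosome 2, 168573832 to 168593443, minus strand), had 2689 and 1728 normalized counts in WT and 4248 and 3878 in the mutant-labelled libraries. The genotypes did not overlap, but the gap between the nearest libraries was only 1.44-fold. Its log2 fold change of 0.91 (SE 0.21, adjusted p = 0.0265, limma) was the smallest of the 7 called, and the call was lost without mutant-labelled replicate 1 (0.85, adjusted p = 0.0636, limma), while without WT replicate 2 the value was 0.59. The antisense gene *Gm14261* shares 526 bases, 9.50% of the merged exons of *Sall4*; the library kit keeps no strand, and that gene had at most 15.7 normalized counts.

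**Figure D2:**
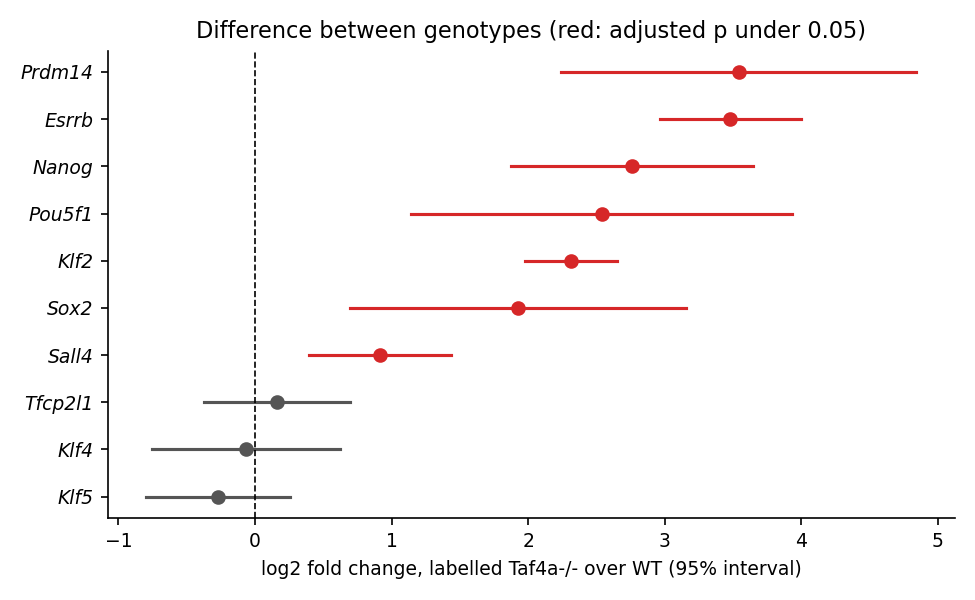
Log2 fold change of each factor, mutant-labelled libraries over WT, on the log2(normalized count + 1) scale, with 95% intervals from limma. The intervals of the 7 red factors lie above 0, from *Sall4* at 0.91 to *Prdm14* at 3.54, and those of *Tfcp2l1*, *Klf4* and *Klf5* span 0.

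Values that did not overlap between the genotypes were found for 7 of the 10 factors, all with the mutant-labelled libraries higher. Over all genes tested, 34.5% had both mutant-labelled libraries above both WT libraries and 36.6% had them below, so with 2 libraries a side this separation carries little weight without the size of the gap. For *Esrrb*, *Prdm14*, *Klf2* and *Nanog* the gap between the nearest libraries was at least 4.13-fold. The share of all genes with so wide a gap was not counted.

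Several of the factors separated the 2 WT libraries. In WT replicate 1, 8 of the 10 factors were higher than in WT replicate 2, and 4 of them, *Pou5f1*, *Sox2*, *Prdm14* and *Nanog*, by more than 1 on the log2 scale (1.97, 1.73, 1.44 and 1.18). Of all genes tested, 4.06% were higher in WT replicate 1 by that much. The median of this difference over all genes was -0.02, and 0.26 when its sign was ignored. *Klf2* at 0.033 and *Klf5* at 0.22 differed by less than that 0.26. *Esrrb* differed by 0.35, and *Klf4* and *Tfcp2l1* went the other way, at -0.84 and -0.63. The mutant-labelled libraries differed from each other by -0.45 to 0.29 on the log2 scale over the 10 factors. Between single libraries, these differences have no test.

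A list of 13 genes of the later, primed state of the epiblast, such as *Pim2*, *Zic2* and *Dnmt3b*, moved with this difference between the WT libraries: the median of its 12 tested genes was 1.48 higher on the log2 scale in WT replicate 1, against -0.02 for all genes. Other lists also stood higher there, with medians of 0.96 for the neural markers, 0.86 for the endothelial markers and 0.85 for the SALL paralogues. In WT replicate 1 and then 2, *Dnmt3b* had 3514 and 912 normalized counts and *Pim2* 1043 and 196. The summed level of the list was 3136 and 1646 normalized counts per kb in the WT libraries and 4115 and 3794 in the mutant-labelled ones. Leaving out WT replicate 1 or WT replicate 2 moved the factors that separated them: the log2 fold change of *Pou5f1* became 3.53 and 1.55, that of *Sox2* 2.79 and 1.06, that of *Nanog* 3.35 and 2.17, and that of *Prdm14* 4.26 and 2.82. Each of these was still called in both fits, in which the lone WT library is assumed to vary like the mutant-labelled ones. *Esrrb* (3.66 and 3.31) and *Klf2* (2.33 and 2.30) moved little.

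**Figure D3:**
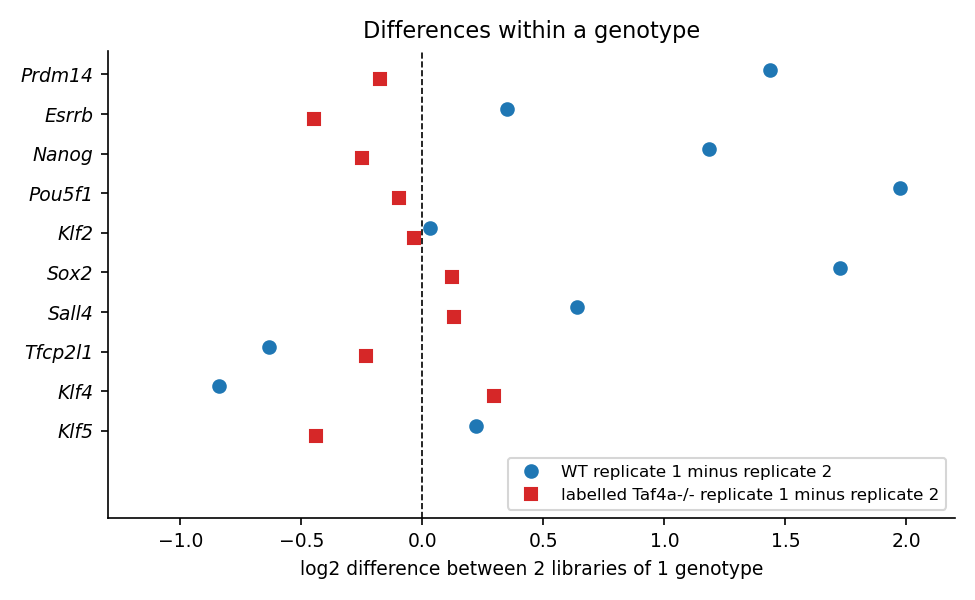
Log2 difference between the 2 libraries of each genotype, in log2(normalized count + 1), for the 10 factors. The WT libraries (blue) are apart by 1.18 to 1.97 in *Nanog*, *Prdm14*, *Sox2* and *Pou5f1*, while every difference between the mutant-labelled libraries (red) lies between -0.45 and 0.29.

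Levels of different genes were compared per kilobase (kb) of merged exons. In the mutant-labelled libraries the order was *Pou5f1* (1427 ± 66.3 normalized counts per kb, SD, n = 2 here and for the values that follow), *Nanog* (1135 ± 138), *Sox2* (1088 ± 65.0), *Sall4* (734 ± 47.4), *Klf2* (708 ± 11.7), *Esrrb* (348 ± 76.0), *Klf4* (266 ± 38.3), *Tfcp2l1* (231 ± 26.2), *Klf5* (173 ± 37.1) and *Prdm14* (45.9 ± 3.96). The library values of *Nanog* and *Sox2*, of *Sall4* and *Klf2*, and of *Klf4* and *Tfcp2l1* overlapped, so these neighbours have no order, whereas *Pou5f1* was first in both libraries. In WT the order began with *Sall4* (399 ± 123) and went on with *Sox2* (338 ± 257), *Pou5f1* (305 ± 256), *Klf4* (288 ± 116), *Tfcp2l1* (211 ± 64.6), *Klf5* (207 ± 22.5), *Nanog* (181 ± 99.5) and *Klf2* (142 ± 2.31). All neighbours among these 8 overlapped, and only *Esrrb* (30.9 ± 5.30) and *Prdm14* (4.09 ± 2.92) stood clear below the rest.

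The summed level of the 10 factors was 2522 and 1690 normalized counts per kb in WT and 6008 and 6303 in the mutant-labelled libraries. The make-up of the set was compared by ratios of counts within a library, which are not per kb, so that they can be read between libraries but not as levels of one gene against another. *Klf2* had 0.419 and 0.228 times the normalized counts of *Klf4* in WT, and 1.44 and 1.81 times in the mutant-labelled libraries. Against *Klf5* the ratios were 0.691 and 0.788 in WT and 5.12 and 3.86 in the mutant-labelled libraries. *Esrrb* had 0.137 and 0.0690 times the counts of *Tfcp2l1* in WT and 0.904 and 1.05 times in the mutant-labelled libraries. The ratio of *Nanog* to *Pou5f1*, 0.513 and 0.888 in WT and 0.747 and 0.831 in the mutant-labelled libraries, overlapped between genotypes. These pairs were chosen after their values were seen, and with 2 libraries a side an exact permutation test, two-sided, cannot give a p below 0.333.

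**Figure D4:**
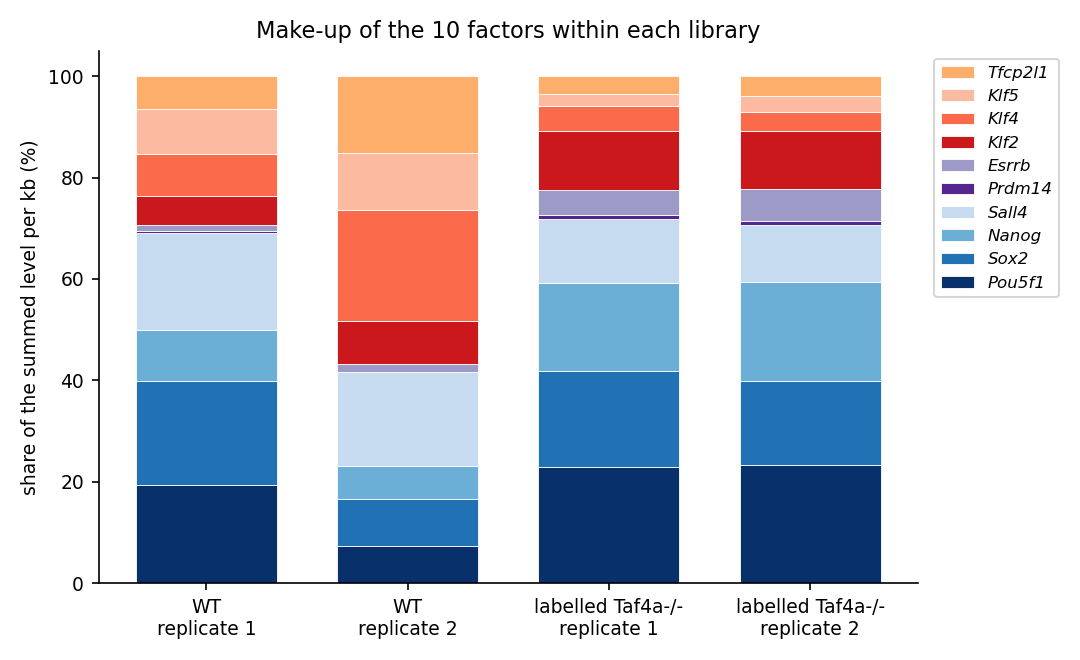
Share of each factor in the summed level of the 10 factors (normalized counts per kb of merged exons) within each library; bars sum to 100%. *Nanog* makes up 17.3% and 19.6% of the sum in the mutant-labelled libraries against 9.96% and 6.53% in WT, and *Klf4* 4.87% and 3.78% against 8.19% and 21.9%.

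*Klf4*, *Klf5* and *Tfcp2l1* are also made outside the stem cell network, so marker lists of such cells were measured beside them. No library of undifferentiated ESCs was included, so which of these markers ESCs also make was not measured. Of 10 epithelial genes 7 were called lower and 0 higher in the mutant-labelled libraries (median -0.74 on the log2 scale). The falls were steepest for the keratin gene *Krt7* (-2.52), the claudin gene *Cldn6* (-1.32) and the keratin gene *Krt19* (-1.05). Their summed level was 21260 and 25873 normalized counts per kb in WT and 19384 and 15290.1 in the mutant-labelled libraries, and no gene of the list was at 0. This count was 1 without WT replicate 2 and 3 without mutant-labelled replicate 2. Of 11 fibroblast genes 9 were lower and 0 higher (median -3.45), with summed levels of 61933 and 87352 per kb in WT and 6905 and 8700.2 in the mutant-labelled libraries, led by *Lum* (-7.01), *S100a4* (-4.73) and *Dcn* (-4.63). All 6 macrophage genes were lower (median -7.76), with *C1qa* at 0 in both mutant-labelled libraries, and 10 of 11 visceral endoderm genes were lower (median -4.93; 6 of 11 without WT replicate 2), with *Alb* at 0 there. *Klf2* is also made in endothelium, and the summed level of 11 endothelial genes, 3174 and 1891 normalized counts per kb in WT and 1725 and 3112 in the mutant-labelled libraries, overlapped between the genotypes. By limma 0 of these genes were called in either direction, with 2 lower at an unadjusted p under 0.05 and 2 called lower without mutant-labelled replicate 2. Of the 6 trophoblast genes tested, too, 0 were called, with 2 higher and 1 lower at an unadjusted p under 0.05; *Elf5* (-4.70) and *Tpbpa* (-5.16) were called lower without mutant-labelled replicate 1, and *Eomes* (2.76) higher without WT replicate 1. The part of these cell types in the values of the factors was not tested.

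Germ cells share *Prdm14*, *Nanog*, *Pou5f1*, *Sox2* and *Sall4* with ESCs. Of 12 germ cell markers, 11 were tested, 8 were called higher and 0 lower by limma (median 1.74 on the log2 scale). The 2 that were lower at an unadjusted p under 0.05 (limma) were *Prdm1* (-0.73) and *Kit* (-0.40). The largest rises were those of *Dppa3* (3.36), the piRNA pathway gene *Mael* (3.29) and *Stra8* (2.57), whose call was kept in 1 of the 4 fits with a library left out. *Dppa3* is also on the list of network targets. The summed level of the list was 630.4 and 659 normalized counts per kb in WT and 1146 and 927 in the mutant-labelled libraries, and *Nanos2*, which is specific to male germ cells, had at most 1.11 normalized counts in any library. The count of germ cell genes called higher was 3 without WT replicate 2 or without mutant-labelled replicate 1, and their part in the values of the 5 factors was not tested.

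Of 12 target genes of the network, 10 were called higher and 0 lower (median 2.08 on the log2 scale). *Dppa3*, *Tcl1*, a co-activator of Akt, and *Fgf4*, a growth factor gene driven by Pou5f1 and Sox2, rose by 3.36, 3.25 and 3.25 on the log2 scale, and *Fgf4* went from 232 and 109 to 1324 and 1752 normalized counts. The 2 not called were *Tdgf1* (1.91, adjusted p = 0.0600, limma) and *Spp1* (-0.02, adjusted p = 0.971, limma), the gene of the secreted protein osteopontin, which many other cells make.

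Among 18 other transcription factors of the network, 8 were called higher, 1 lower and 9 neither, with a median of 0.91. Among those called, the rises were largest for *Nr0b1* (3.77), *Zfp42* (2.76) and *Zscan10* (2.06). *Foxd3* (2.63, adjusted p = 0.0550, limma) and *Gbx2* (2.08, adjusted p = 0.151, limma) had larger values than *Zscan10* but were not called. The gene that fell was *Stat3* (-1.03, adjusted p = 0.0307, limma), which carries the LIF signal, with 2887 and 5062 normalized counts in WT and 1916 and 1823 in the mutant-labelled libraries. That call was lost without mutant-labelled replicate 2 (adjusted p = 0.0518, limma), and without WT replicate 1 the number called higher was 14. Of the 12 primed genes tested, 2 were called higher and 0 lower, *Lef1* (1.82) and *Etv4* (1.68), with a median of 1.20; 9 were called without WT replicate 1 (median 2.05), 3 without WT replicate 2 (median 0.31) and 4 without mutant-labelled replicate 2.

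**Figure D5:**
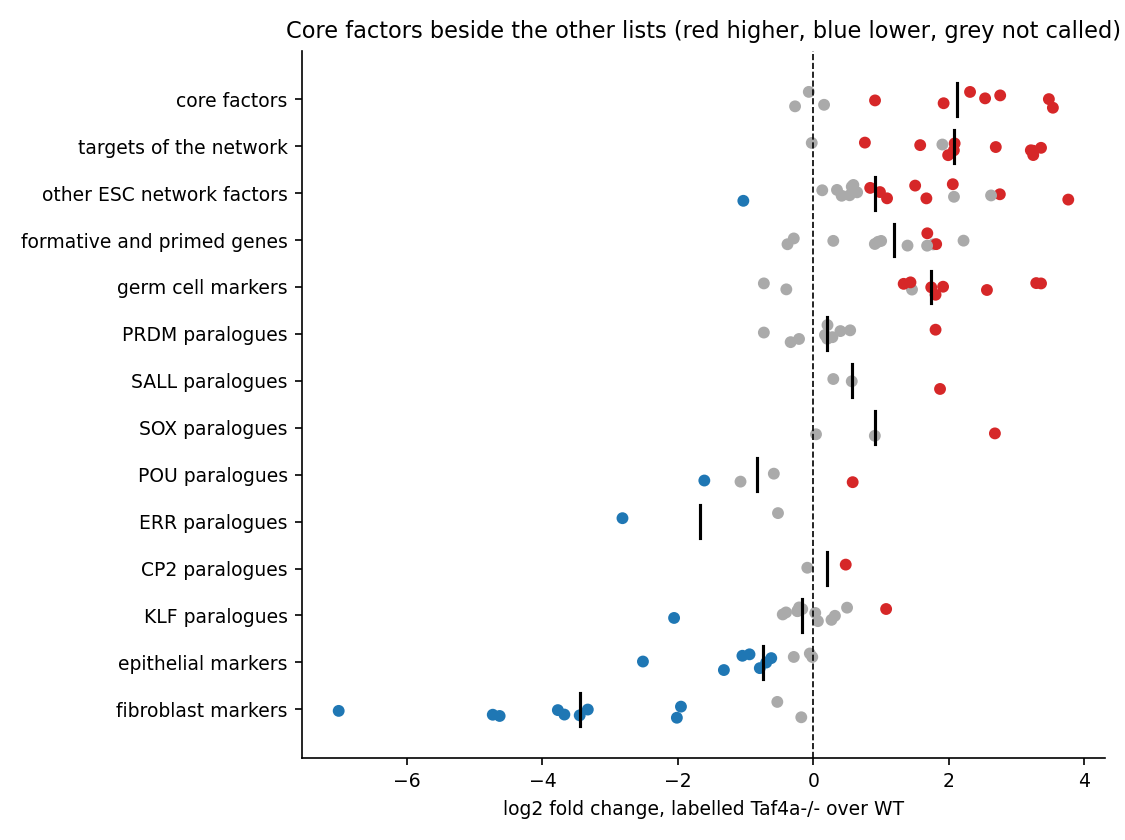
Log2 fold change of every tested gene of the core set and of 13 further lists, with a black bar at each median. Red points are called higher, blue lower. The medians of the core factors (2.12) and target genes (2.08) lie to the right of those of every paralogue list. These run from SOX (0.91) and SALL (0.57) over PRDM (0.21) and KLF (-0.16) to ERR (-1.67). Single genes depart from this: *Klf4* (-0.07) and *Klf5* (-0.27) lie among their KLF relatives, and *Sox15* (2.68) and *Sall3* (1.87) were called higher.

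Paralogues of the 10 factors were measured to see whether whole families moved. Of 14 other KLF genes, 13 were tested, 1 was called higher and 1 lower: *Klf9* (1.08) and *Klf14* (-2.06), and their median was -0.16 (0.046 and 2 called higher without WT replicate 1). *Klf6*, not called, had 4847 and 5306 normalized counts in WT and 4666 and 4398 in the mutant-labelled libraries. Of the other ERR genes, *Esrrg*, known from heart and other oxidative tissues, fell by 2.82 on the log2 scale (adjusted p = 0.00808, limma, and 0.0575 without WT replicate 2), and *Esrra* had a log2 fold change of -0.52 (adjusted p = 0.0509, limma).

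Of the POU genes tested, *Pou6f1* was lower (-1.61) and *Pou2f1* slightly higher (0.58, a call lost without WT replicate 2, adjusted p = 0.0686, limma, and without either mutant-labelled library). Among SOX relatives *Sox15*, which is made in ESCs, rose by 2.68 on the log2 scale, from 12.3 and 15.6 to 109 and 81.8 normalized counts, and neither *Sox3* (0.91) nor *Sox21* (0.041) was called. The CP2 relative *Tfcp2* was not called (-0.09), and *Ubp1* was slightly higher (0.48, a call lost without WT replicate 2, adjusted p = 0.0532, limma, and without either mutant-labelled library). In the PRDM family 1 of 10 tested genes was called, *Prdm16* (1.81), while another was called higher without WT replicate 1 and another lower without mutant-labelled replicate 1, and in the SALL family *Sall3* was higher (1.87) while *Sall1* (0.57) and *Sall2* (0.30) were not called; without WT replicate 1 all 3 SALL genes were called.

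The genes whose profile over the 4 libraries was nearest to the median profile of the 10 factors, by Euclidean distance of centred log2 values among 12536 genes with a mean of at least 100, were *Hoxb5*, *Sall3*, *Lef1*, *Alpl* and *Slc7a3*, at distances of 0.194 to 0.307. *Alpl* encodes the alkaline phosphatase used as a stain for ESC colonies, and had 601 and 360 normalized counts in WT and 2007 and 1780 in the mutant-labelled libraries. *Hoxb5*, a gene of trunk patterning, had 62.2 and 26.0 against 153 and 167. None of the 10 factors lay as near to their median profile: *Sox2* was the nearest at 0.462, *Esrrb* was at 1.61 and *Klf4* was the farthest at 2.497. The median joins the 7 factors called higher with the 3 not called, so likeness to it is not likeness to each factor. With 4 libraries such a likeness is a description only.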

How the data were processed

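The authors sequenced polyA RNA of 4 libraries, aligned them to the mm9 build (NCBI37) using TopHat (1.3.3 in the submitters' processing notes, which also name CASAVA 1.8, HTSeq 0.5.3p1 and DESeq) and deposited gene counts divided by 1 size factor per library. Of these normalized counts, 100% were whole multiples of the value of 1 read (tolerance 0.01 reads), which gave back the reads. Genes with a mean of at least 10 (16926) were compared with limma 3.58.1 in R 4.3.3 (variance trend) on log2(normalized count + 1), a scale that understates changes of low genes. Tests are two-sided. With 2 libraries a genotype, p-values rest in part on the spread between the biological replicates, which came from 2 independent lines of each genotype. They also rest on other genes, because limma draws the variance of each gene towards the trend over genes of similar level. On simulated data of this comparison over 16923 genes, the test recovered 94% of 2-fold and 99% of 4-fold changes among 200 changed genes, and 7.21% of its calls were unchanged genes. Every simulated gene had the same spread, the median of the real genes. These rates therefore do not carry over to genes that vary more between replicates, such as *Pou5f1*, *Sox2* and *Prdm14* in WT. Positions and merged exons came from GENCODE M1 on NCBIM37, which held all 24637 identifiers; 2 of 179 listed genes, *Pou5f2* and *Sox1*, were not matched.

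The members and lists were chosen with earlier results of these data known. Named genes are the 10 factors, *Taf4a*, up to 3 called genes a list with the largest rise and fall, all genes of lists of up to 3, defining markers at 0, overlapping genes, and the 5 nearest profiles. *Pim2*, *Zic2*, *Dnmt3b*, *Klf6*, *Tdgf1*, *Spp1*, *Tnnt2*, *Sox3*, *Sox21*, *Foxd3*, *Gbx2*, *Elf5*, *Tpbpa*, *Eomes*, *Nanos2*, *Prdm1* and *Kit* were added after their values were seen. Alternatives were other pseudocounts, filters, scalings, variance models and thresholds, voom on the recovered reads, the replicate number as a block, and each library left out in turn. No protein sequences were used here. Figures were drawn with matplotlib 3.10.9 in Python 3.11.15.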

Additional observations from a re-analysis of the deposited data

How the results depend on the processing

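Of the 10 factors, the number called higher was 7; it was 4 with no trend in the variance, and 4 where 0.01 was the limit for the adjusted p-value, where *Pou5f1*, *Sox2* and *Sall4* were no longer called, and 6 to 7 with one library left out. All genes called were 4834, against 2597 and 1450 under those settings and 1967 to 5514 with one library left out. The number of factors called lower was 0 in all 15 alternatives. The median log2 fold change of the factors ran from 2.09 to 2.24 over the other settings and from 1.31 to 2.56 with one library left out. *Klf4*, not called, changed sign with quantile normalization (0.027, where the median of all genes was 0.11) and ranged from -0.49 to 0.35 with one library left out; *Tfcp2l1* ranged from -0.16 to 0.48 there. *Taf4a* kept its direction and call, from 0.98 to 1.37 with one library left out. The cause was not tested. The replicate number as a block left 7 factors called higher and 4193 genes called in all; it changed no call among the 10 factors, and deviations of same-numbered libraries had a correlation of 0.012, so the numbers were taken as names. The count tests of edgeR and DESeq2 listed among the alternatives were not run. Low depth limits *Prdm14* in WT, at 5 and 18 reads.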
